A study of Arabidopsis thaliana with 19 samples.

Results

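Cytosolic ribosomal protein genes were followed across 7 sorted cell populations of the Arabidopsis thaliana shoot apex. The set was a list of 36 loci that encode proteins of the large and small subunits of the cytosolic ribosome, and a locus was kept where the authors' table of averaged signals gave it a probe set. This left 31 genes of 23 protein families, 16 of the large and 15 of the small subunit, among 22746 probe sets that are not array controls. The 5 loci without a row there were AT3G11940 (RPS5A), AT2G37270 (RPS5B), AT2G18020 (EMB2296, protein L8), AT1G70600 (protein L27a) and AT2G40010 (protein P0).

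The cytosolic ribosome makes nearly all proteins encoded in the nucleus. It joins a small subunit, which reads the messenger RNA, to a large subunit, which forms peptide bonds, and in Arabidopsis each ribosomal protein is encoded by a small family of near-identical genes. The genes are strongly expressed in dividing and growing tissue such as the shoot meristem, and mutants in several of them have pointed or narrow leaves.

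All 19 arrays came from ap1-1;cal1-1 plants, whose shoot tips keep forming meristems in place of flowers, and the plants were 28 days old. Apices were turned into protoplasts, cells with a fluorescent promoter reporter were sorted, and their RNA was amplified in 2 rounds before hybridisation to ATH1 arrays. The vascular populations were AtHB8, labelled xylem and stem (n = 3), and S17, labelled phloem (n = 3). The non-vascular populations were HDG4, labelled subepidermal (n = 3), the epidermal reporters AtML1 (n = 2) and HMG (n = 3), KAN1, labelled organ circumference (n = 3), and LAS, labelled adaxial (n = 2). No sample was unsorted, wild type or a control, so every comparison is between reporters. Each population is what 1 promoter marked after protoplasting, and nothing in the labels ties replicates to separate plants or sorts. The p-values below therefore reflect how far these arrays spread, which may be technical, and a reporter's line cannot be told apart from its cell type.

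The arrays had median signals of 152 to 183; precision is limited by how many arrays each reporter has. Of the marker genes, the xylem regulators HB-8 (ATHB8) and VND7 were called present on 6 and 5 of the 6 vascular arrays and on 0 of the 13 non-vascular arrays. The summed signal of 4 epidermal markers was 663 to 1728 on the vascular arrays and 2672 to 3539 on the HDG4 arrays, against 58779 to 65966 in AtML1 and 49774 to 52118 in HMG. KAN1 (44218 to 49700.4) and LAS (22317 to 26639.7) also carried epidermal markers. HDG4 carried phloem markers (1558 to 3076, summed over 4 genes, against 11689 to 13813 in S17 and 4138 to 6048 in AtHB8). BAM3 set the order of these sums, at 655 in HDG4, 10722 in S17 and 4643 in AtHB8. SEOR1 averaged 1516 in HDG4, 711 in S17 and 60.1 in AtHB8. APL averaged 202, 301 and 5.04 in the same order, and SUC2 83.4, 1164 and 101. Markers of 1 cell type were thus high in more than 1 population.

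All 31 genes were called present on all 19 arrays. Their signals, which are MAS5 intensities scaled alike on every array, averaged between 705 for RPS9C and 21367 for RPS8A over the 19 arrays, and the brightest value of all was 27821, on an AtML1 array. Probe sets differ in brightness for the same amount of RNA, so these signals do not rank the genes by level. For 29 of the 31 genes limma's moderated F test found a difference among the 7 reporters at an adjusted p under 0.05, a call made for 75.2% of all 15161 probe sets tested. The genes without that call were RPL5A (adjusted p = 0.119) and RPL3A (adjusted p = 0.0911).

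Most of the genes moved together, and no other probe sets were correlated for comparison. Over the 19 arrays the median Pearson correlation between 2 of the genes was 0.75 (465 pairs of genes, from -0.32 to 0.98), a description only, since the points share arrays, scaling and reporter groups. RPL5B was least like the others, with a median correlation of 0.35, followed by RPS9C (0.43) and RPL5A (0.51). The highest and lowest reporter means of a gene lay 1.30 apart on the log2 scale at the median, against a median SD of 0.20 between arrays of the same reporter. The spread between reporters was widest for RPL10B (2.07) and narrowest for RPL5A (0.52).

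**Figure D1:**
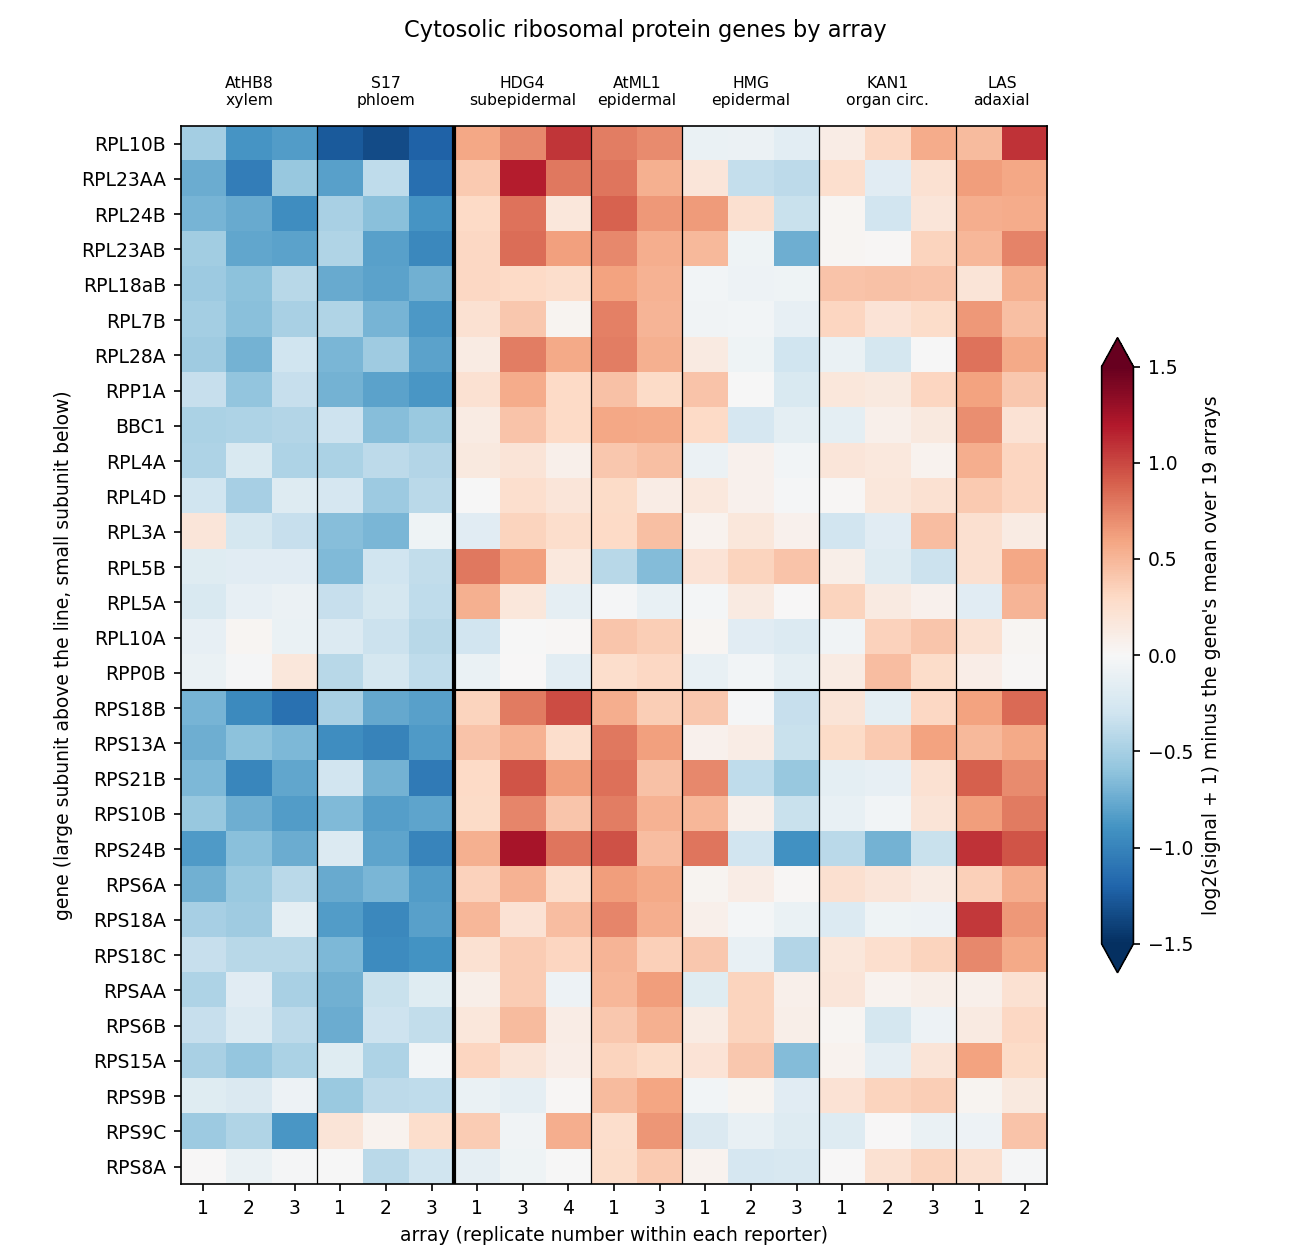
Each row is 1 gene, 30 of the 31 being shown, and each column 1 of the 19 arrays, grouped by reporter with the vascular reporters left of the thick line; colour is log2(signal + 1) minus the gene's mean over all arrays, red above and blue below it. The 6 vascular columns are blue for most genes, RPL5B is blue on the AtML1 arrays, and RPS9C is blue on the AtHB8 arrays and pale on the S17 arrays.

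The reporters had a common order for most genes. AtML1 gave the highest mean for 15 genes and LAS for 12, while HDG4 did so for 3 and KAN1 for 1. S17 gave the lowest mean for 23 genes, AtHB8 for 7 and AtML1 for 1, and the 2 vascular reporters held the lowest 2 places for 26 genes. Averaged over the 31 genes, the log2 deviation from the gene's mean was -0.44, -0.50 and -0.45 on the AtHB8 arrays and -0.53, -0.60 and -0.63 on the S17 arrays. It was 0.23, 0.45 and 0.32 in HDG4, 0.54 and 0.44 in AtML1, 0.16, -0.012 and -0.22 in HMG, 0.061, 0.044 and 0.20 in KAN1 and 0.47 and 0.47 in LAS. The vascular arrays lay below all 13 others, HMG and KAN1 followed, and HDG4, AtML1 and LAS overlapped at the top. In sorted populations, fewer cells of a type and less RNA per cell cannot be told apart.

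All 31 genes were lower in the vascular reporters than in the non-vascular ones at an adjusted p under 0.05, and none was higher. Of all probe sets tested, 38.9% passed as lower and 29.6% as higher. At least a 2-fold difference was reached by 9 of the genes, all lower, and by 13.2% of all probe sets in that direction, with 15.5% in the other. The median log2 difference of the 31 genes was -0.92, against -0.13 for all probe sets. For 13 of the 31 genes every vascular array lay below every non-vascular array, as did 10.2% of all probe sets. The 16 large subunit genes had a median of -0.83 and the 15 small subunit genes a median of -0.98; the difference between the subunits was not tested.

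**Figure D2:**
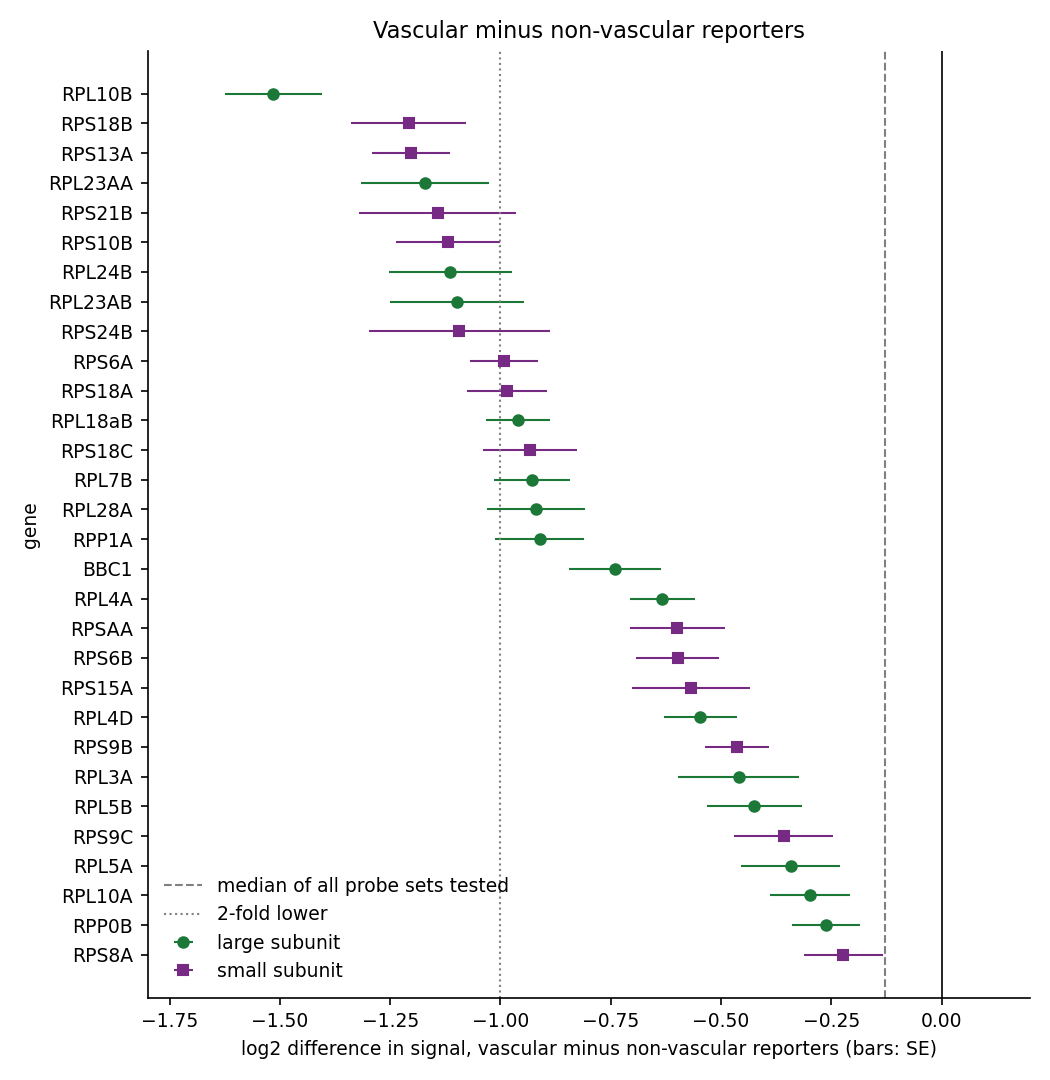
The log2 difference in signal, vascular minus non-vascular reporters, is plotted for 30 of the 31 genes with its standard error; circles are large and squares small subunit genes, the dotted line marks a 2-fold lower signal and the dashed line the median of all probe sets tested. The genes run from RPL10B at -1.52 to RPS8A at -0.22, and all 30 shown lie left of the dashed line.

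Among the large subunit genes, the strongest difference was in RPL10B (AT1G26910), a copy of protein L10, which joins the large subunit late in its assembly. The lowest, median and highest signals of RPL10B were 713, 879 and 1269 on the vascular arrays, against 1627, 2675 and 3845 on the non-vascular arrays. The groups did not overlap, and the log2 difference was -1.52 ± 0.11 (SE), with an adjusted p of 1.23e-08. Its paralogue RPL10A (AT1G14320, also called SAC52), which is bright, read 14699.7, 17518 and 20058 on the vascular arrays, against 16069, 19972 and 26218 on the non-vascular arrays. Here the groups overlapped, with a difference of -0.30 ± 0.091 (SE), with an adjusted p of 0.00909.

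The L23a proteins sit at the exit of the peptide tunnel, where targeting factors dock. RPL23AA (AT2G39460) read 1743, 2225 and 2925 on the vascular arrays, against 2906, 5007 and 8594 on the non-vascular arrays, and RPL23AB (AT3G55280) read 1056, 1197 and 1512 on the vascular arrays, against 1243, 2909.7 and 3701 on the non-vascular arrays. In both genes the groups overlapped, and the differences were -1.17 ± 0.15 (SE), with an adjusted p of 3.69e-06, for RPL23AA and -1.10 ± 0.15 (SE), with an adjusted p of 1.26e-05, for RPL23AB. RPL24B (AT3G53020, also called STV1), whose mutants have a short valve in the fruit, read 2512, 2897 and 3409 on the vascular arrays, against 3817, 5911 and 8884 on the non-vascular arrays. It did not overlap and differed by -1.11 ± 0.14 (SE), with an adjusted p of 4.36e-06.

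Proteins L3 and L4 belong to the core of the subunit, L3 close to the site of peptide bond formation and L4 along the exit tunnel. RPL4A (AT3G09630) read 8499.6, 8653 and 10071 on the vascular arrays, against 11146, 13159 and 17309 on the non-vascular arrays. RPL4D (AT5G02870) read 11304, 12918 and 14356 on the vascular arrays, against 16291, 18571 and 21557 on the non-vascular arrays. Both were lower without overlap, with log2 differences of -0.63 ± 0.073 for RPL4A and -0.55 ± 0.083 for RPL4D (SE; adjusted p = 1.85e-06 and 2.94e-05). RPL3A (AT1G43170) differed by -0.46 ± 0.14 (SE), with an adjusted p of 0.00789, and its groups overlapped.

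L5 carries the 5S ribosomal RNA into the large subunit. RPL5A (AT3G25520) read 4283, 4717 and 5245 on the vascular arrays, against 4956, 5841 and 8094 on the non-vascular arrays. RPL5B (AT5G39740) read 3240.3, 4316 and 4551 on the vascular arrays, against 3242, 5893 and 8837 on the non-vascular arrays. In both genes the groups overlapped, and both differences were among the smaller ones, at -0.34 ± 0.11 (SE), with an adjusted p of 0.0132, for RPL5A and -0.42 ± 0.11 (SE), with an adjusted p of 0.00261, for RPL5B. RPL5B was the only gene of the 31 whose lowest mean was in AtML1.

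The stalk proteins P0 and P1 recruit elongation factors to the large subunit. RPP1A (AT1G01100) read 5262, 6144 and 7597 on the vascular arrays, against 8238, 11859 and 14597 on the non-vascular arrays, with no overlap and a difference of -0.91 ± 0.10 (SE), with an adjusted p of 1.06e-06. RPP0B (AT3G09200), bright on all arrays, read 13520.4, 15982 and 20336 on the vascular arrays, against 16272, 18311 and 25041 on the non-vascular arrays, with overlap and a difference of -0.26 ± 0.078 (SE), with an adjusted p of 0.00747. The other large subunit genes were RPL7B (-0.93), BBC1, which encodes protein L13 (-0.74), RPL18aB (-0.96) and RPL28A (-0.92), given as log2 differences, all lower without overlap, with adjusted p from 1.74e-08 to 1.49e-05.

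In the small subunit, the largest differences were in RPS18B and RPS13A. Mutants of RPS13A, and of RPS18A (PFL), a paralogue of RPS18B, have pointed first leaves. RPS18B (AT1G34030) read 1285, 1614 and 1983 on the vascular arrays, against 2189, 3595 and 5492 on the non-vascular arrays, and RPS13A (AT4G00100) read 3594, 4169 and 4715 on the vascular arrays, against 5737, 9710.3 and 12452 on the non-vascular arrays. Neither overlapped, and the differences were -1.21 ± 0.13 (SE), with an adjusted p of 8.72e-07, for RPS18B and -1.20 ± 0.088 (SE), with an adjusted p of 1.35e-08, for RPS13A. Of the other S18 genes, RPS18A (AT1G22780) read 3523, 4359 and 6232 on the vascular arrays, against 6016, 8061 and 14426 on the non-vascular arrays and RPS18C (AT4G09800) read 4627, 6125 and 7015 on the vascular arrays, against 6586, 11206 and 14708 on the non-vascular arrays. Their groups overlapped, and they differed by -0.99 ± 0.092 and -0.93 ± 0.11 (SE).

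S6 is the ribosomal protein that S6 kinase phosphorylates under control of TOR, the kinase that couples growth to nutrients. RPS6A (AT4G31700) read 6248, 6842 and 8383 on the vascular arrays, against 11294, 13390.0 and 17231 on the non-vascular arrays. RPS6B (AT5G10360) read 5077, 6658 and 7409 on the vascular arrays, against 7115, 9339 and 12366 on the non-vascular arrays. RPS6A did not overlap and RPS6B did, with differences of -0.99 ± 0.077 (SE), with an adjusted p of 2.36e-08, for RPS6A and -0.60 ± 0.094 (SE), with an adjusted p of 4.51e-05, for RPS6B.

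S9 acts in the accuracy of decoding. RPS9B (AT5G15200) read 9844, 11781 and 13682 on the vascular arrays, against 12829.6, 14917 and 21785 on the non-vascular arrays. RPS9C (AT5G39850), the dimmest of the 31, read 374, 605 and 819 on the vascular arrays, against 586, 661 and 1079 on the non-vascular arrays. Both overlapped and differed by -0.46 ± 0.073 (SE), with an adjusted p of 4.41e-05, for RPS9B and -0.36 ± 0.11 (SE), with an adjusted p of 0.0107, for RPS9C. The smallest difference of all 31 was in RPS8A (AT5G20290), which read 16010.0, 20238 and 21273 on the vascular arrays, against 17788, 21280.0 and 27821 on the non-vascular arrays and differed by -0.22 ± 0.09 (SE), with an adjusted p of 0.0380. That call was lost when any of 9 arrays was left out (AtHB8 replicates 1, 2 and 3, S17 replicates 2 and 3, AtML1 replicate 3, KAN1 replicates 2 and 3, LAS replicate 1), with adjusted p from 0.0527 to 0.112, and without the filter (0.0657). Further small subunit genes were RPS10B (-1.12), RPS21B (-1.14), RPS24B (-1.09), RPSAA (-0.60) and RPS15A (-0.57), given as log2 differences, with adjusted p from 6.44e-07 to 0.00149. RPS10B alone among these 5 did not overlap.

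The vascular reporters were also set against each non-vascular reporter alone, a comparison chosen after the values were seen. Against LAS 25 of 31 genes were lower (median log2 difference -1.11, 31.9% of all probe sets lower), and against AtML1 29 (median -1.05, 28.2%). Against KAN1 25 were lower (median -0.54, 27.8%), and against HMG 21 (median -0.57, 29.7%). None of the 31 was higher in any of these comparisons, which share the 6 vascular arrays, while 24.4% of all probe sets were higher against LAS, 24.6% against AtML1, 20.5% against KAN1 and 24.5% against HMG. The differences against HMG and KAN1 were the smaller ones, and 0 of 31 genes reached 2-fold against HMG, where 12.2% of all probe sets were at least 2-fold lower.

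RNA quality and brightness varied between the arrays beside this result. The 3' to 5' signal ratio of the GAPDH control, which rises with RNA degradation or incomplete amplification, was 6.07 to 12.3 on the vascular arrays, 6.27 to 7.94 on the KAN1 arrays and 8.95 to 23.2 on the other 10 non-vascular arrays. The actin control ranked them otherwise, with 3' to 5' ratios of 10.1 to 12.9 on the vascular arrays, 4.44 to 6.08 on the KAN1 arrays and 7.31 to 19.7 on the other non-vascular arrays. The KAN1 arrays thus lay inside the vascular range by GAPDH and below it by actin. The LAS arrays had ratios of 23.2 and 11.6, with the mean deviation of the 31 genes at 0.47 and 0.47. On the HMG arrays the ratios were 17.7, 8.95 and 11.3 and the deviations 0.16, -0.012 and -0.22, so the array with the highest ratio was also the highest for these genes. The summed signal of 2 mesophyll markers was 2494 to 5667 on the vascular arrays, 3587 to 4776 in KAN1 and 408 to 2006 in the other 4 reporters. The meristem markers STM, KNAT1 and CLV3 summed to 4591 to 7891 on the vascular arrays, against 2485 to 6765 on the non-vascular arrays. STM averaged 2999 in AtHB8 and 4392 in S17, against 1183 (KAN1) to 6060 (HDG4) in the non-vascular reporters. KNAT1 averaged 2098 in AtHB8 and 2687 in S17, against 124 (HMG) to 1347 (KAN1). CLV3 averaged 7.24 in AtHB8 and 5.52 in S17, against 17.98 (KAN1) to 199 (HMG). The part of RNA quality, of mesophyll cells and of meristem cells in the difference was not tested.

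The 12 genes with a mean signal above 10000 had a median difference of -0.62, and 0 of them reached 2-fold. The dimmer genes had a median of -0.99, and 9 of 19 reached it. Of all probe sets tested, 13.2% were at least 2-fold lower, and probe sets of like brightness were not counted apart. The brightest probe set of each array read 23285 to 36429.9. Across the 31 genes the correlation of the log2 difference with the mean log2 signal was 0.43, a description only, and whether bright probe sets were compressed was not tested.

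**Figure D3:**
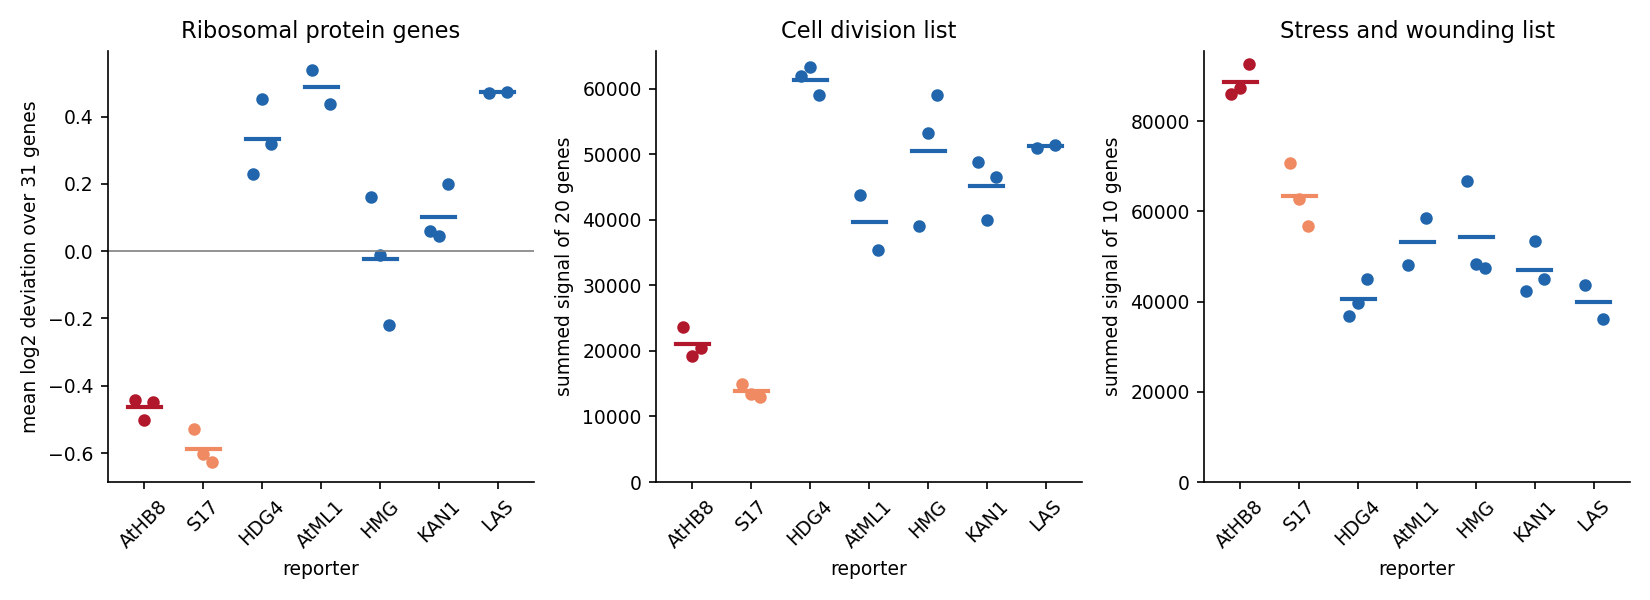
Points are arrays and bars reporter means: the mean log2 deviation of the 31 ribosomal protein genes (left), the summed signal of 20 cell division genes (middle) and of 10 stress and wounding genes (right). The 6 vascular arrays (red and orange) are lowest in the first and second panels, and the AtHB8 arrays are highest in the third.

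No label calls a population dividing. HDG4 was taken as the population richest in cell division transcripts, with a summed signal of 20 cell division genes of 58985 to 63282, against 12993 to 23650.4 on the vascular arrays, and the choice rests on earlier results of these data. The other non-vascular arrays, at 35417 to 59098, reached the HDG4 range on 1 array, HMG replicate 3. The AtML1 arrays, with the highest mean signal for 15 of the ribosomal protein genes, had cell division sums of 35417 to 43800.3, in the lower part of the non-vascular range.

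Between HDG4 and the vascular reporters, 26 of 31 genes were higher in HDG4 and none was lower, with 33.7% of all probe sets higher and 26.8% lower. At least 2-fold was reached by 12 genes, all higher (16.6% of all probe sets higher and 17.2% lower), and the median log2 difference was 0.85, against 0.13 for all. RPL10B read 2715, 2998 and 3822 on the HDG4 arrays, against the vascular 713, 879 and 1269 (lowest, median, highest), a difference of 1.80 ± 0.16 (SE), with an adjusted p of 2.19e-07. RPL23AA read 5007, 8594 and 6597 in HDG4 and differed by 1.56 ± 0.21 (SE). All HDG4 values of these genes lay above every vascular value.

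RPS24B read 2219, 3595 and 2672 in HDG4 against 770.4, 899.7 and 1331 on the vascular arrays (lowest, median, highest) and differed by 1.56 ± 0.29 (SE). RPS18B, at 3524, 4775 and 5492, differed by 1.50 ± 0.19 (SE). At the lower end of the genes that passed stood RPL5A (0.43), RPL4D (0.51), RPS9C (0.52) and RPSAA (0.52). Of these 4, RPL5A lost its call without HDG4 replicate 1 (adjusted p = 0.189), on leaving out HDG4 replicate 3 (0.0631) without AtHB8 replicate 1 (0.0503) and without the filter (0.0510). RPS9C lost it with array weights (0.0602) and without HDG4 replicate 4 (0.0722) and RPSAA without HDG4 replicate 3 (0.0652). The 5 genes that did not pass were RPS8A (0.068), RPP0B (0.089), RPL10A (0.096), RPS9B (0.23) and RPL3A (0.45). The vascular arrays are those of the comparison above.

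Against the other 4 non-vascular reporters, 2 of the 31 genes passed in HDG4. The median log2 difference was 0.053, against 0.039 for all probe sets, with 1 gene higher and 1 lower, while 9.8% of all probe sets were higher and 9.62% lower. This median was 0.16 with quantile normalisation, against 0.06 for all probe sets, and -0.036 without HDG4 replicate 3, so its sign rests on that array. It was 0.012 without HMG replicate 3, 0.013 without LAS replicate 2, 0.028 without AtML1 replicate 3 and 0.033 without KAN1 replicate 2. RPL5B read 8837, 7815 and 5723 in HDG4, against 3816 and 3242 in AtML1, 5893, 6435 and 6895 in HMG, 5415, 4467 and 4098 in KAN1 and 6043 and 7618 in LAS. With a 2-fold minimum 0 of 31 passed, against 2.53% of all probe sets higher and 5.36% lower. RPL5B HDG4 values overlapped with HMG and LAS, and the difference was 0.51 ± 0.14 (SE), with an adjusted p of 0.0219. The call was lost without HDG4 replicate 1 (adjusted p = 0.117) and on leaving out HDG4 replicate 3 (0.104).

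RPS9B was lower in HDG4, at 13498, 13133 and 14604, against 20132 and 21785 in AtML1, 14062, 14904 and 12829.6 in HMG, 16726, 18205 and 18689 in KAN1 and 14917 and 16014 in LAS. HDG4 overlapped only with HMG, and the difference was -0.29 ± 0.097 (SE), with an adjusted p of 0.0454. The call was lost in 17 of the 19 fits that left out 1 array, with adjusted p from 0.0504 to 0.175; it was kept without HMG replicate 3 and S17 replicate 1. The difference was -0.17 with quantile normalisation (adjusted p = 0.303), and the call was also lost without the filter (0.0855) and with a pseudocount of 16 (0.0592). The 2 epidermal reporters set against HDG4 had 2 genes lower and 0 higher (11% of all probe sets lower, 9.37% higher), and a median of -0.061. With quantile normalisation the median was -0.22, against -0.075 for all probe sets. It was -0.013 without HMG replicate 3, -0.023 without HDG4 replicate 3, -0.035 without AtML1 replicate 3 and -0.11 without HMG replicate 1. At 2-fold or more 0 of 31 passed, against 5.69% of all probe sets higher and 3.94% lower. RPL5B, with the values above, differed by -0.63 ± 0.16 (SE), with an adjusted p of 0.0112. RPL10B read 3089 and 2974 in AtML1 and 1690.3, 1707 and 1627 in HMG, against 2715, 2998 and 3822 in HDG4. The AtML1 arrays lay inside the HDG4 range and the HMG arrays below it, and the difference was -0.48 ± 0.16 (SE), with an adjusted p of 0.0496. RPL10B lost its call without the filter (adjusted p = 0.0921), with array weights (0.0758) and in 15 of the 19 fits without 1 array (from 0.0509 to 0.198), and kept it without AtHB8 replicate 1, HDG4 replicate 1, LAS replicate 1 and LAS replicate 2. RPL5B lost it without HDG4 replicate 1 (adjusted p = 0.0584) and HDG4 replicate 3 (adjusted p = 0.0537).

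The xylem and phloem reporters differed in 2 of the genes. Between AtHB8 and S17, 1 gene was lower and 1 higher in AtHB8, against 6.99% and 8.56% of all probe sets, and the median log2 difference was 0.17, or 0.068 with quantile normalisation. None reached 2-fold: 0 of 31 passed, against 4.2% of all probe sets higher and 4.35% lower. RPS9C read 469, 499 and 374 in AtHB8 and 779, 711 and 819 in S17, without overlap, and differed by -0.79 ± 0.18 (SE), with an adjusted p of 0.00939. RPS18A read 4907, 4781 and 6232 in AtHB8 and 3862, 3523 and 3937 in S17, also without overlap, and differed by 0.48 ± 0.15 (SE), with an adjusted p of 0.0414. The call of RPS18A was lost in 10 of the 19 fits that left out 1 array (any of AtHB8, S17 or KAN1, or HMG replicate 2), with adjusted p from 0.0522 to 0.172, and without the filter (0.0794). The phloem sum was 4138 to 6048 in AtHB8 and 11689 to 13813 in S17. The xylem sum was 9339.8 to 11375 in AtHB8 and 1740.1 to 2287 in S17. A single gene made most of each sum in the other vascular type. The phloem marker BAM3 averaged 4643 in AtHB8, where APL, SUC2 and SEOR1 averaged 5.04, 101 and 60.1. The xylem marker HB-8 averaged 1714 in S17, where VND7, IRX3 and XCP1 averaged 104, 93.7 and 51.7. The mesophyll sum was 2494 to 2746 in AtHB8 and 3553 to 5667 in S17. The part of these markers in the differences was not tested.

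The epidermal reporters differed from each other in the ribosomal protein genes, in a comparison added after the values were seen. Of the 31 genes, 10 were higher and 1 lower in AtML1 than in HMG, against 5.13% and 5.43% of all probe sets, with a median log2 difference of 0.57 against 0.015 for all. With quantile normalisation the median was 0.27, against -0.0062 for all. RPL10B read 3089 and 2974 in AtML1 and 1690.3, 1707 and 1627 in HMG and differed by 0.86 ± 0.20 (SE), with an adjusted p of 0.0178. RPL5B was lower, at 3816 and 3242 in AtML1 and 5893, 6435 and 6895 in HMG, a difference of -0.86 ± 0.20 (SE), with an adjusted p of 0.0155. With a 2-fold minimum 1 of 31 passed, against 2.69% of all probe sets higher and 2.32% lower. Neither RPL10B nor RPL5B overlapped between the reporters. Both calls were lost without AtML1 replicate 1, AtML1 replicate 3 or HMG replicate 3. For RPL10B the adjusted p was then 0.110, 0.0861 and 0.0524. For RPL5B it was 0.0564, 0.122 and 0.0516.

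RPS13A and RPL28A were also among the highest differences. RPS13A read 12452 and 11014 in AtML1 and 7568, 7806 and 5737 in HMG and differed by 0.75 ± 0.16 (SE), with an adjusted p of 0.0123. RPL28A read 13055 and 11144 in AtML1 and 8454, 7351 and 6243 in HMG and differed by 0.73 ± 0.21 (SE), with an adjusted p of 0.0371. Neither overlapped. The RPS13A call was lost without AtML1 replicate 1 (0.107) and the RPL28A call without AtML1 replicate 1 (0.226), AtML1 replicate 3 (0.0991), HMG replicate 2 (0.0742) and HMG replicate 3 (0.117), given with their adjusted p.

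The smallest increases that passed were in RPL4A, RPS6A and RPS9B. RPL4A read 15656 and 16103 in AtML1 and 11146, 12406 and 11449.8 in HMG and differed by 0.45 ± 0.13 (SE), with an adjusted p of 0.0475. RPS6A read 17231 and 16540.2 in AtML1 and 11442, 12016 and 11294 in HMG and differed by 0.54 ± 0.14 (SE), with an adjusted p of 0.0259. RPS9B read 20132 and 21785 in AtML1 and 14062, 14904 and 12829.6 in HMG and differed by 0.59 ± 0.13 (SE), with an adjusted p of 0.0149. None of these 3 overlapped. RPL4A lost its call in 17 of the 19 fits without 1 array (adjusted p from 0.0507 to 0.199) and kept it without HDG4 replicate 1 and HDG4 replicate 4. RPS6A lost its call without AtML1 replicate 1 (0.148), AtML1 replicate 3 (0.106) and HMG replicate 3 (0.0695), and RPS9B without AtML1 replicate 1 (0.0639), AtML1 replicate 3 (0.109) and HMG replicate 3 (0.0511). With quantile normalisation the differences were 0.12 for RPL4A (adjusted p = 0.654), 0.21 for RPS6A (adjusted p = 0.415), 0.21 for RPS9B (adjusted p = 0.387). RPS13A (0.0570) and RPL28A (0.117) also lost their calls with it. Without the filter the calls of RPL4A (adjusted p = 0.0934), RPL28A (0.0762) and RPS6A (0.0562) were lost. RPL4A also lost its call with a pseudocount of 16 (0.0588).

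Of the 135 other cytosolic ribosomal protein genes, 64 were higher and 0 lower in AtML1 (median 0.72), while cell division genes were higher for 1 of 20 and lower for 6 (median -0.46). Plastid ribosomal protein genes were higher for 1 of 35 and lower for 1. Of all probe sets, 5.13% were higher and 5.43% lower. The number of passing genes among the 31 depended on single arrays: it was 1 without AtML1 replicate 1, 3 without AtML1 replicate 3, 4 without HMG replicate 3 and 20 without HMG replicate 1. The GAPDH 3' to 5' ratio was 18.3 and 17.7 in AtML1 and 17.7, 8.95 and 11.3 in HMG, and its part in the result was not tested.

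The paralogues were compared through the log2 ratio of their signals within each array, which removes whatever an array adds to both genes. The ratio was used only for how it moved between arrays, since 2 probe sets cannot be compared in level. The P0 and S5 pairs had no or only 1 gene in the table, which left 9 pairs in 7 families. Each pair was tested with a two-sided exact permutation test of the 6 vascular against the 13 non-vascular arrays (27132 regroupings), adjusted over the 9 pairs. The test treats all arrays as exchangeable, though arrays of the same reporter share their line. Its p-values therefore do not measure the spread between reporters.

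The L10 pair changed its balance. The ratio of RPL10A over RPL10B was 3.83 to 4.49 on the vascular arrays, against 2.37 to 3.56 on the non-vascular arrays, without overlap. Its mean was 4.12 in AtHB8 and 4.39 in S17, against 3.43 in HMG, 3.34 in KAN1, 3.09 in AtML1, 2.78 in LAS and 2.55 in HDG4. The difference of 1.20 had the smallest p that the exact permutation test can give (3.69e-05, adjusted 0.000332). RPL10B, the dimmer probe set, differed by -1.52 and RPL10A by -0.30. RPL10A averaged 19885, where the brightest probe set of an array read 23285 to 36429.9, and the part of compression in this ratio was not tested.

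The S6 pair moved the other way. The ratio of RPS6A over RPS6B was -0.079 to 0.38 on the vascular arrays, against 0.17 to 0.83 on the non-vascular arrays, with overlap. It averaged 0.13 in AtHB8 and 0.11 in S17, against 0.26 in HMG and 0.51 to 0.67 in the other 4 reporters. The difference was -0.39 (exact permutation p = 0.000627, adjusted 0.00282), and HMG lay nearest to the vascular reporters. The signal of RPS6A was thus further below its non-vascular level than that of RPS6B.

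The other 7 pairs did not pass. Their differences were -0.068 for RPL4A over RPL4D, 0.10 for RPL5A over RPL5B, -0.076 for RPL23AA over RPL23AB, -0.11 for RPS9B over RPS9C, 0.25 for RPS18A over RPS18B, -0.025 for RPS18A over RPS18C and -0.28 for RPS18B over RPS18C, with adjusted exact permutation p from 0.231 to 0.843. A p that misses the threshold does not show that the copies kept 1 ratio. Within the groups some of these pairs spread widely. RPL5A over RPL5B averaged 0.16 in AtHB8 and 0.24 in S17, but ranged among the non-vascular reporters between -0.20 in HDG4 and 0.61 in AtML1. RPS9B over RPS9C averaged 4.86 in AtHB8 and 3.79 in S17, and all 5 non-vascular means lay between these values. The platform annotation gave 1 gene for 12 of the 31 probe sets, several genes for 0 and none for 19. Paralogues of these families are near-identical in sequence, and no probe sequence was checked here. The probe sets may thus read more than 1 copy, and each pair is uncertain to that extent.

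**Figure D4:**
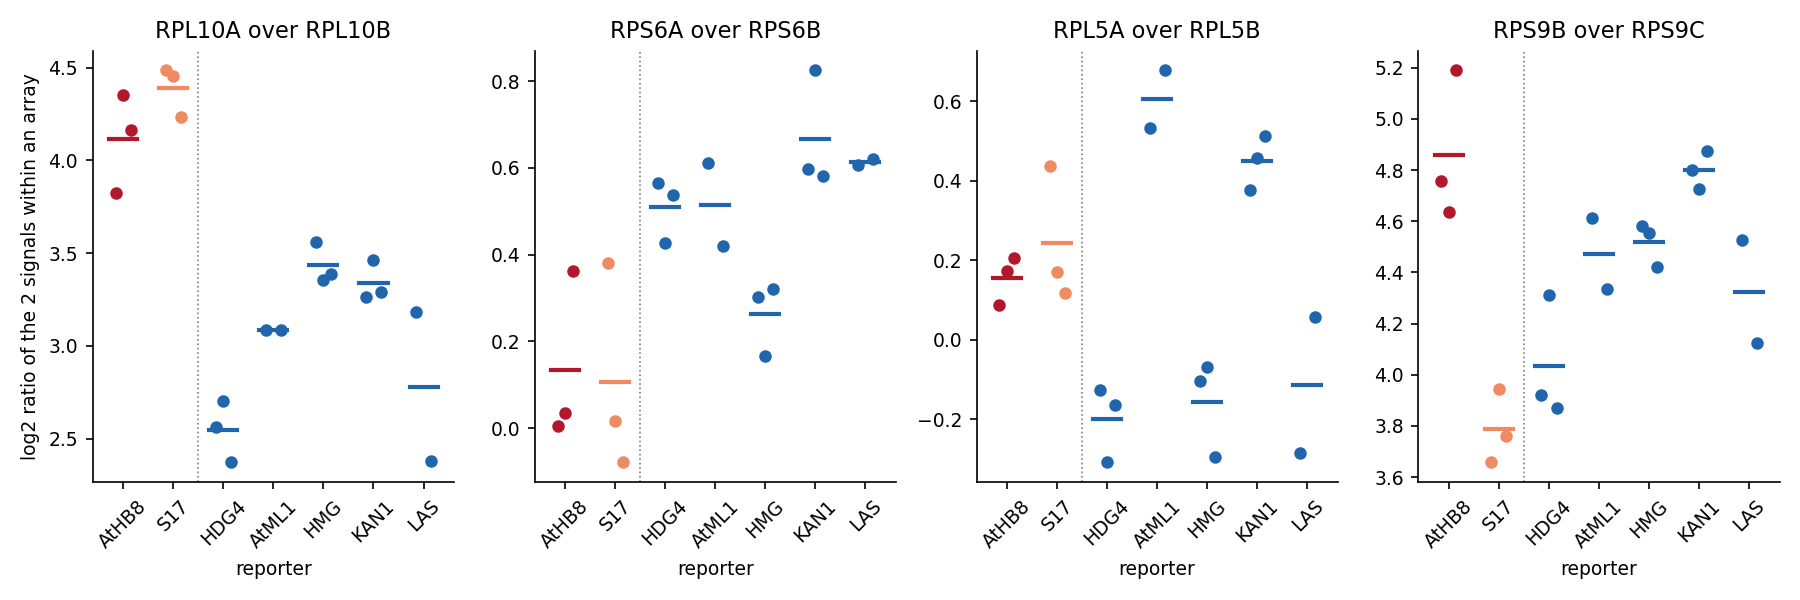
Points are the log2 ratios of the signals of 2 paralogues within an array and bars are reporter means, with the vascular reporters left of the dotted line and a separate y axis for each pair. RPL10A over RPL10B is 3.83 or more on all vascular arrays and 3.56 or less on all others, RPS6A over RPS6B is lower there with overlap, and for RPL5A over RPL5B and RPS9B over RPS9C the reporters differ within the groups.

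Most other genes of the cytosolic ribosome were also lower. Of 135 other cytosolic ribosomal protein genes tested (148 had a probe set), 131 were lower in the vascular reporters and 1 was higher. Their median log2 difference was -1.05, and 78 were at least 2-fold lower. Of all probe sets, 38.9% were lower, 29.6% higher and 13.2% at least 2-fold lower. The gene that was higher, RPL18AA, read 940.5, 1047 and 1231 on the vascular arrays, against 509, 804 and 1227 on the non-vascular arrays (lowest, median, highest) and differed by 0.45 ± 0.15 (SE; adjusted p = 0.0128). Next in order stood AT4G34670, with a difference of -0.35 ± 0.096. AT1G23410 was called present on 1 of 6 vascular and 13 of 13 non-vascular arrays and read 6.48, 56.6 and 95.9 on the vascular arrays, against 351, 715 and 1269 on the non-vascular arrays. AT1G36240 was called present on 0 vascular and 6 non-vascular arrays, so no fold is given.

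Ribosome biogenesis genes, which act in the nucleolus, were lower for 22 of 28 tested and higher for 2, with a median of -0.65. The shares of all probe sets, for this list and the translation factors below, were 38.9% lower and 29.6% higher. FIB2, a fibrillarin that methylates ribosomal RNA, read 1342, 1406 and 1556 on the vascular arrays, against 1931, 3858 and 6207 on the non-vascular arrays, and differed by -1.50 ± 0.14 (SE; adjusted p = 1.73e-07). AT1G52930 differed by -1.33 ± 0.095 and AT4G31420 by 0.71 ± 0.086. NUC-L2, a nucleolin, was called present on 0 vascular and 2 non-vascular arrays and has no measured fold. Of 18 genes of the translation factor list, 13 were lower and 2 higher (median -0.41). The list also holds TCTP and RACK1 scaffold genes, which are not translation factors themselves. LSP1, a cap-binding factor, differed by -1.12 ± 0.11 and RACK1B_AT, a scaffold on the small subunit, by -1.14 ± 0.095. ELF5A-3 (0.68 ± 0.12) and TCTP (0.49 ± 0.086) were higher.

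Ribosomal protein genes of the plastid, whose ribosome is of bacterial type, followed in part. Of 35 tested, 19 were lower (54.3%) and 1 higher (2.86%), against 38.9% and 29.6% of all probe sets. Their median was -0.43, against -0.13 for all, and 16 of the 36 listed are encoded in the organelle itself. EMB3137 differed by -1.31 ± 0.16, PSRP3/2, called present on 3 of 6 vascular arrays, by -1.39 ± 0.12 and RPL15 by -0.31 ± 0.10, while ATCG00640 was higher by 0.74 ± 0.26. The difference between the plastid and the cytosolic lists was not tested.

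Of 7 TOR pathway genes, 3 were higher in the vascular reporters and 1 lower (median 0.13), beside 29.6% of all probe sets higher and 38.9% lower. Those that passed were S6K2 (0.91 ± 0.12) and PK1 (0.56 ± 0.12), the S6 kinases, and AT5G63190 (0.74 ± 0.11), all higher, and TAP46 (-0.42 ± 0.10), which was lower. S6K2 read 4936, 6637 and 8146 on the vascular arrays, against 2179, 3712 and 6931 on the non-vascular arrays.

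Cell division genes were lower for 19 of 20, 16 of them at least 2-fold (median -1.52), led by the replication clamps PCNA2 (-2.45 ± 0.14) and PCNA1 (-2.37 ± 0.12), with CYCB2;1 (-0.37 ± 0.14) and CYCB2;2 (-0.87 ± 0.19) at the other end. Of all probe sets, 38.9% were lower and 29.6% higher, with 13.2% at least 2-fold lower and 15.5% at least 2-fold higher. Of 10 stress and wounding genes 8 were higher, 6 at least 2-fold (median 1.34). Their summed signal was 56688 to 92746 on the vascular arrays, against 36161 to 66697 on the others. HSP70 was higher by 3.96 ± 0.21 and HSP17.6A by 2.33 ± 0.26, with STZ at 0.34 ± 0.12 and LOX2, called present on 9 of the 19 arrays, at -1.05 ± 0.34. The part of the handling of the cells in the ribosomal protein difference was not tested.

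In HDG4 against the other non-vascular reporters, ribosome biogenesis genes were higher for 9 of 28 (median 0.27), with none lower. Cell division genes, for which HDG4 was chosen, were higher for 8 of 20 (median 0.52), which restates that choice. Plastid ribosomal protein genes were higher for 7 of 35 (median 0.28). Of the 135 other cytosolic ribosomal protein genes 15 were higher and 3 lower (median 0.11), and of the 31 genes 1 was higher and 1 lower. All probe sets passed in 9.8% as higher and 9.62% as lower, and differences between the lists were not tested.

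**Figure D5:**
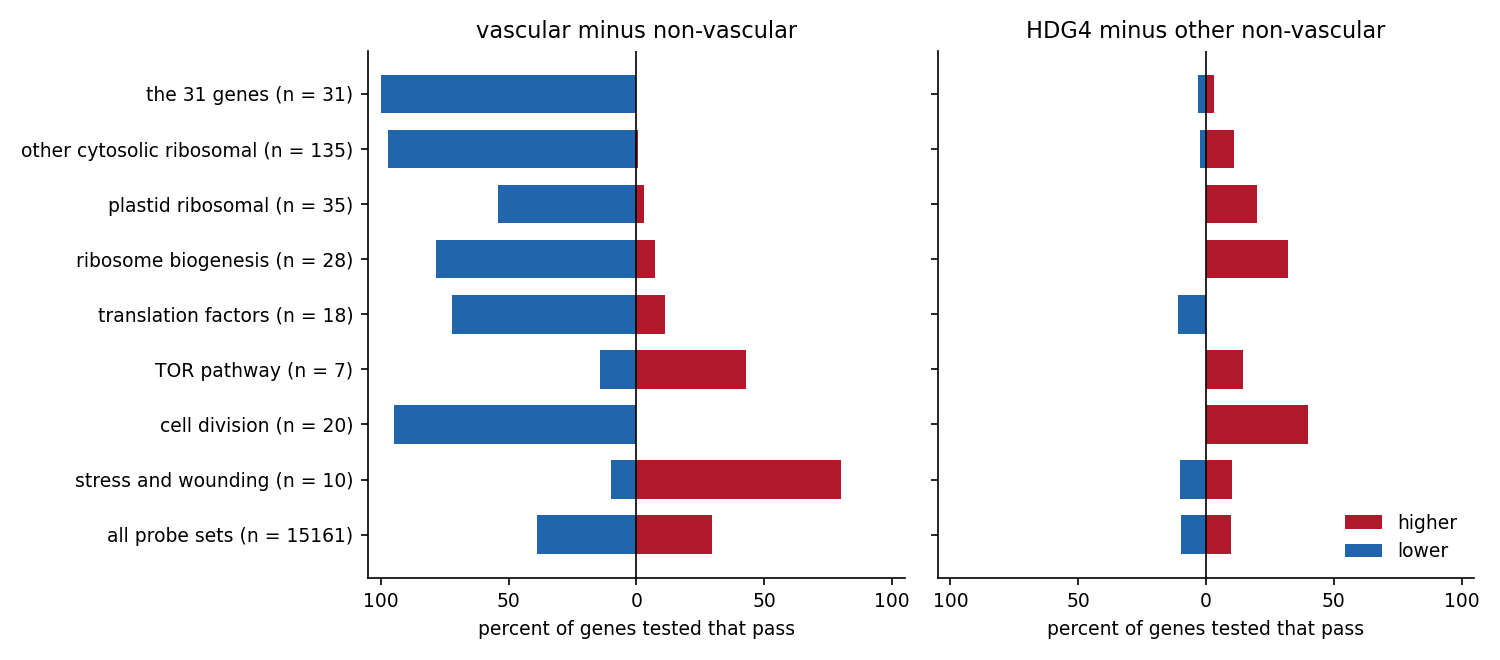
Bars give the percent of the tested genes of each list that passed as higher (red, right) or lower (blue, left), in the vascular against the non-vascular reporters (left panel) and in HDG4 against the other non-vascular reporters (right panel). The bar of the 31 genes reaches 31 of 31 lower on the left and 1 of 31 in each direction on the right, and the bottom row gives all 15161 probe sets.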

How the data were processed

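Amplified RNA of sorted protoplasts was measured on 19 ATH1 arrays. Per the submitters' processing notes, the authors used MAS5; the deposited values are MAS5 signal intensities per probe set, on a linear scale, and the 2% trimmed mean is 500 on every array. A second deposited table gives the authors' averages per reporter and the detection calls (present, marginal or absent) of each array, from which the present calls were counted. Its gene column named the loci, and the averages matched those of the single arrays. The scanner files were not used here, and no genome build, promoter or protein sequence was used.

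Signals were taken as log2(signal + 1). Probe sets at or above the 40th percentile of each array of at least 1 reporter were kept, 15161 of 22746. All 19 arrays were fitted in limma 3.58.1 (R 4.3.3) with 1 mean per reporter (lmFit, eBayes, two-sided, 12 residual and 3.06 prior degrees of freedom), each reporter weighing the same within a group, and p-values were adjusted by Benjamini-Hochberg over all 15161. A gene passed at an adjusted p under 0.05. The comparisons share arrays. Alternatives were no filter, a 60th percentile filter, a pseudocount of 16, quantile normalisation, array weights, a replicate block (statmod 1.5.0), a 2-fold minimum and each array left out. The genes, lists and groups were chosen with earlier results of these data known. Values are given for the paralogue pairs, for the 4 highest and 4 lowest passing genes of a comparison (less the gene mentioned last) and, of each other list, for the 2 highest and 2 lowest passing genes. The lists of other cytosolic and of plastid genes came from the descriptions in the authors' table. The fit was tested on simulated data. Values of 1 of the 31 genes are not reported here singly, though the gene is in the counts and medians.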

Additional observations from a re-analysis of the deposited data

How the results depend on the processing

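Of all 31 genes, 12 lay below 0 in HDG4 against the other non-vascular reporters, and 19 without HDG4 replicate 3. In HDG4 against the vascular reporters 0 genes lay below 0, and 1 with the replicate block. Single results were followed only for the 4 highest and 4 lowest passing genes of each comparison and the passing pairs. None of these changed direction under the alternatives. Of 792 values of single genes or pairs under an alternative, 673 kept their side of the threshold and 119 lost it. In the vascular against the non-vascular reporters 31 genes passed, 30 to 31 with an array left out and 9 with a 2-fold minimum. In HDG4 against the vascular reporters 26 passed, 24 to 27 with an array left out and 12 with a 2-fold minimum. The differences that rest on few genes moved more. HDG4 against the other non-vascular reporters (2 genes) gave 1 without the filter, with a pseudocount of 16 and with quantile normalisation, 4 with array weights, 0 with a 2-fold minimum and 0 to 2 with an array left out. The epidermal reporters against HDG4 (2 genes) gave 1 without the filter, 4 with array weights, 0 with a 2-fold minimum and 0 to 4 with an array left out. Both counts were 0 without HDG4 replicate 3. Over all probe sets, array weights gave 1576 higher and 1592 lower in the first of these 2 comparisons, against 1486 and 1458 in the main fit. In the second they gave 1692 and 1998, against 1421 and 1666. AtHB8 against S17 (2 genes) gave 1 without the filter, 4 with the 60th percentile filter, 4 with array weights, 0 with a 2-fold minimum and 1 to 3 with an array left out. AtML1 against HMG (11 genes) gave 7 without the filter, 4 with quantile normalisation, 21 with array weights, 1 with a 2-fold minimum and 1 to 20 with an array left out. The F test called 27 to 29 genes, and 2 paralogue pairs passed each time, with an array left out. Calls over all probe sets moved too. In AtML1 against HMG, 778 were higher and 823 lower of 15161 in the main fit. They were 432 and 432 of 22746 without the filter, 634 and 724 with quantile normalisation and 1897 and 1757 with array weights. In AtHB8 against S17, array weights gave 1787 higher and 1444 lower, against 1298 and 1060 in the main fit. The cause of these changes was not tested.

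Replicate numbers did not pair the arrays. The median correlation of deviations was 0.004 between arrays of the same number (46 pairs, from -0.23 to 0.21) and 0.000866 between different numbers (108 pairs). With the replicate number as a block, 30 genes passed in the vascular comparison and 25 in HDG4 against vascular. The count was 1 in HDG4 against the other non-vascular reporters, 1 in epidermal against HDG4 and 1 in AtHB8 against S17. It was 9 in AtML1 against HMG and 28 in the F test. Of the genes followed singly, RPS8A lost its call in the vascular comparison (adjusted p = 0.0738) and RPS9C in HDG4 against vascular (0.0597). RPS9B lost its call in HDG4 against the other non-vascular reporters (0.0903) and RPL10B in epidermal against HDG4 (0.233). RPS18A lost its call in AtHB8 against S17 (0.0534), and RPL28A (0.0750) and RPL4A (0.0656) in AtML1 against HMG.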

Other observations

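The P0 gene AT2G40010 has no row in the averaged table but a probe set in the platform annotation. Its signal averaged 5.29 ± 2.80 in AtHB8 and 26.0 ± 26.1 in S17 (SD, n = 3 each), against 542 ± 121 in LAS (n = 2), 224 ± 188 in HDG4, 203 ± 16.9 in KAN1, 183 ± 83.7 in HMG (n = 3 each) and 14.1 ± 0.592 in AtML1 (n = 2). The AtML1 mean lay between those of the vascular reporters. No test was made, and whether the gene was called present is not known here.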
